A study of Mus musculus with 6 samples.

Results

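Fatty acid synthesis turns cytosolic citrate into palmitate. The 10 genes described here are Slc25a1, Acly, Acss2, Me1, Acaca, Acacb and Fasn, which carry out the steps from citrate export to palmitate, and Thrsp, Mlxipl and Srebf1, which control them. They were chosen by gene symbol as the steps from citrate to palmitate and the factors that drive them, and all 10 were among the 40213 genes of the deposited table and among the 14706 that passed a filter on low counts. The tissue was epididymal white adipose tissue (eWAT). It came from 3 adult male RFP KO mice, in which Trim27, the gene of Ret finger protein (RFP), is deleted in the whole body, and from 3 male wild-type (WT) littermates. Mice of both genotypes had eaten a 60% high-fat diet (HFD) for 12 weeks, starting at 8 to 10 weeks of age, so the groups were RFP KO-HFD and WT-HFD with 1 mRNA library per mouse. The strain background of the whole-body knockout is not given in the sources used here. All 6 libraries came from HFD-fed mice, with none from mice on a normal diet.

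In adipocytes and hepatocytes, citrate leaves the mitochondrion through the carrier encoded by Slc25a1 and is split by ATP citrate lyase (Acly) into acetyl-CoA. Acss2 makes acetyl-CoA from acetate. The acetyl-CoA carboxylases (Acaca and Acacb) turn it into malonyl-CoA, and fatty acid synthase (Fasn) builds palmitate from malonyl-CoA with NADPH, part of which malic enzyme (Me1) supplies. Srebf1 encodes SREBP1, a membrane-bound transcription factor that is cut free and enters the nucleus after insulin signalling, and Mlxipl encodes ChREBP, which responds to sugar metabolites. Both bind the promoters of lipogenic genes, and SREBP1 binds them together with the factors NF-Y and Sp1. High-fat feeding has been reported to lower this pathway in mouse fat. The paper instead reports that the diet raised all the adipogenic and lipogenic genes it measured by qPCR in eWAT. It found this rise smaller in RFP KO mice than in WT mice.

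The promoters of Fasn, Acly and Mlxipl are shown because these genes separated the groups under the main scaling of libraries described below. Fasn and Acly were the 2 of the 10 genes whose levels lay lower in every RFP KO-HFD library than in any WT-HFD library, as for 16% of all genes tested. Mlxipl was the 1 gene whose levels lay higher, as for 7.28% of all genes tested. With library totals, Slc25a1 and Acss2 also lay lower throughout and Mlxipl overlapped, so the choice of promoters depends on the scaling. Each window runs from 250 bases before the annotated start to 50 bases after it, 5′ to 3′ on the gene's strand, and comes from RefSeq on GRCm38.p6. Capitals mark CCAAT, the box bound by NF-Y, and CACGTG, the E-box, on either strand. For Mlxipl the printed window is the upstream one of those annotated.
Fasn, chr11:120824498-120824797, minus strand: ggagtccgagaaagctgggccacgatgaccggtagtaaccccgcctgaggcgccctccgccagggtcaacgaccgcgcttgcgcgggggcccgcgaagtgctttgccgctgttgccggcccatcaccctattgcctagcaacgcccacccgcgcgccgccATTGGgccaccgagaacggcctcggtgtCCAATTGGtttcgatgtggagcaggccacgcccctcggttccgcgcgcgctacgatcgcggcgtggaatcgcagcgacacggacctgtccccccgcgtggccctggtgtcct
Acly, chr11:100527951-100528250, minus strand: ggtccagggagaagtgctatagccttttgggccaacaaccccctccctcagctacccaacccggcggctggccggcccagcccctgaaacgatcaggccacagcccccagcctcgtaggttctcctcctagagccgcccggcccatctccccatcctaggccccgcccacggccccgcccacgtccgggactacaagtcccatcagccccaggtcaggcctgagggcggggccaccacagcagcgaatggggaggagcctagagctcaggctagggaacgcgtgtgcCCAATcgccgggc
Mlxipl, chr5:135089640-135089939, plus strand: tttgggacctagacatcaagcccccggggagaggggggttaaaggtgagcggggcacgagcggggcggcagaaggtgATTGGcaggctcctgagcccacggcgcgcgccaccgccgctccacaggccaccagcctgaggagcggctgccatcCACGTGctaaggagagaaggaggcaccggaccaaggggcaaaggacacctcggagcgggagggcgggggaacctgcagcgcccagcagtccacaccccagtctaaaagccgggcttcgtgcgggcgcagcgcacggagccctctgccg
CCAAT was found in 10 of the 14 windows that RefSeq gives for these genes, which belong to 9 of the 10 genes, and in 37.4% of all 32851 promoter windows. In the Fasn window it was found 3 times, and 2 of these matches, on opposite strands, overlap by 2 bases. The Sp1 box GGGCGG was in 7 of the 14 windows and in 35.7% of all windows. It was matched 4 times near Acly and not in the Fasn window. CACGTG was in 2 windows, those of Slc25a1 and Mlxipl, against 7.15% of all windows, and the sterol element TCACNCCAC was in 1, a second window of Mlxipl, against 1.24% of all windows. The capitals in the 3 printed windows leave the Sp1 matches unmarked, and a match is a string of letters and not a measured binding site.

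The 6 libraries were uneven. Total counts were 4870239 to 13924363 in RFP KO-HFD and 15216306 to 17215047 in WT-HFD. Genes with a count numbered 10758 in RFP KO-HFD 1 and 16396 to 20278 in the other libraries. Across genes, log2 levels of WT-HFD 1 and 3 correlated at r = 0.993, and those of every other pair at 0.923 or less. RFP KO-HFD 1 correlated with the other libraries at 0.536 to 0.590. Trim27 stood at 19.4, 4.10 and 4.63 CPM (counts scaled to a common library size, here adjusted by TMM, which sets extreme genes aside) in the libraries labelled RFP KO-HFD 1, 2 and 3, against 22.7, 40.2 and 29.5 CPM in WT-HFD 1, 2 and 3. Trim27 in the library labelled RFP KO-HFD 1 was thus near the WT-HFD level, and values without it are given beside several results below. That library had no count of the adipocyte genes Adipoq and Plin1, while Lpl, made by many cells of fat, stood at 11647 CPM of the library's total. The 12 adipocyte markers summed to 12116, 29759 and 35401 CPM of the total in RFP KO-HFD 1, 2 and 3, against 31042, 20267 and 31776 CPM in WT-HFD. Of 14 hepatocyte markers, 12 (all but Hp and Cyp2e1, which fat also expresses) summed to 27139, 655 and 1214 CPM in RFP KO-HFD, against 110 to 173 CPM in WT-HFD. Albumin (Alb) stood at 11949, 279 and 524 CPM in RFP KO-HFD, against 43.9, 76.0 and 57.4 CPM in WT-HFD. Of the abundant adipocyte markers, Fabp4, Cidec and Cfd stood at 105, 48.3 and 16.8 CPM in RFP KO-HFD 1, against at least 427 CPM in each of the other libraries. The labels call the cells adipocytes, but the tissue was whole, and 11 macrophage markers summed to 731, 1676 and 804 CPM in RFP KO-HFD, against 4804, 2116 and 4663 CPM in WT-HFD. All 11 had negative log2 fold changes, with a median of -1.30. Markers of preadipocytes and fibroblasts summed to 302, 2212 and 709 CPM in RFP KO-HFD, against 4944, 2138 and 4406 CPM in WT-HFD, with 8 of 10 lower by fold change and a median of -1.58. Mesothelial markers summed to 8.21, 88.8 and 9.69 CPM in RFP KO-HFD, against 100, 608 and 157 CPM in WT-HFD, with 8 of 8 lower and a median of -4.22. Hepatocytes express most genes of fatty acid synthesis, and the part of RNA from any of these cells in the values below was not tested. WT-HFD 2 held smooth muscle markers at 22038 CPM, against 1145 and 1056 CPM in WT-HFD 1 and 3, and epididymal markers at 1091 CPM, against under 1 CPM in both. It was also the lowest WT-HFD library for all 10 genes. In bulk tissue, fewer cells of a type and less RNA per cell cannot be told apart.

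Counts of the 10 genes together made up a smaller part of the total counts in the RFP KO-HFD libraries. They took 0.147% (0.144% to 0.151%), 0.181% (0.178% to 0.183%) and 0.277% (0.274% to 0.279%) of all counts in RFP KO-HFD 1, 2 and 3, against 0.612% (0.608% to 0.615%), 0.279% (0.276% to 0.281%) and 0.691% (0.687% to 0.695%) in WT-HFD 1, 2 and 3. The brackets hold exact Clopper-Pearson 95% intervals, which cover counting error only. RFP KO-HFD 3 and WT-HFD 2 were nearly level on this scale of library totals, where 70.8% of all genes were lower by fold change. TMM would raise RFP KO-HFD 3 (factor 0.683) and lower WT-HFD 2 (factor 1.16), so the groups would then overlap. Fasn alone took 31.3%, 22.5% and 18.8% of the counts of the 10 genes in RFP KO-HFD, against 48.2%, 44.7% and 52.6% in WT-HFD, so the groups did not overlap in the share that belonged to Fasn. That share also moves with the other genes in the sum, such as Acacb, which had 0 counts in RFP KO-HFD 1. How many of all genes would separate the groups in this way was not taken.

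**Figure D1:**
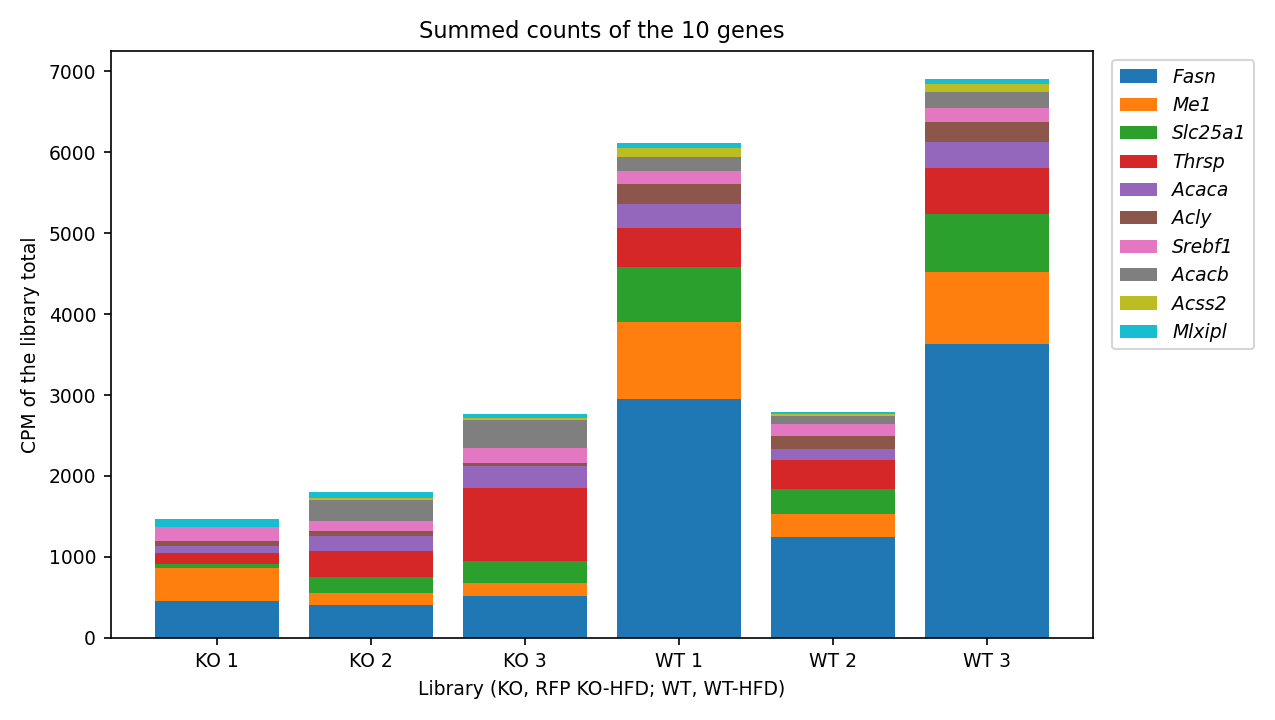
Summed counts of the 10 genes (CPM of the total, vertical axis, linear), stacked by gene, for the 3 RFP KO-HFD libraries on the left and the 3 WT-HFD libraries on the right. The bars reach 1473, 1806 and 2765 CPM in RFP KO-HFD and 6116, 2788 and 6908 CPM in WT-HFD, and the Fasn segment at the bottom is the part that differs most.

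None of the 10 genes passed the test across the table. Tested by quasi-likelihood in edgeR with p-values adjusted after Benjamini and Hochberg, 0 of the 10 and 0 of the 14706 genes tested (0%) were at an adjusted p under 0.05. Unadjusted, 992 genes had a p under 0.05. DESeq2 placed 488 genes at an adjusted p under 0.05, limma-voom 0, and limma-voom with library quality weights 1039. Fasn and Acly were the 2 members at an unadjusted p under 0.05, both lower in RFP KO-HFD, where 2.70% of all genes tested were lower at that level. By log2 fold change (RFP KO-HFD over WT-HFD), 6 of the 10 genes were lower, with a median of -0.62, beside 56.0% of all genes lower and a median of -0.13. The 6 include Acaca, whose value was at 0 within its error. With library totals in place of TMM, 8 of the 10 were lower with a median of -1.04, beside 70.8% of all genes and a median of -0.50.

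The citrate carrier and the enzymes that make cytosolic acetyl-CoA lay lower in RFP KO-HFD by fold change, and of these Acly separated the groups. Acly (gene ID 104112, chromosome 11 from 100367178 to 100418826, minus strand, on GRCm39, the build of all gene positions given here) was at 70.0, 63.7 and 62.1 CPM in RFP KO-HFD 1, 2 and 3, against 218.4, 138.9 and 220.7 CPM in WT-HFD 1, 2 and 3. The RFP KO-HFD libraries lay close together, and the highest of them stood at about 0.5 of the lowest WT-HFD library. Means were 65.3 ± 4.14 CPM in RFP KO-HFD and 193 ± 46.6 CPM in WT-HFD (SD, n = 3 each). In log2 terms the fold change was -1.56 (standard error 0.348, edgeR adjusted p = 0.599). DESeq2 placed Acly past the threshold (adjusted p = 7.29e-04).

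Slc25a1 (gene ID 13358, chromosome 16 from 17743075 to 17746083, minus strand) was at 51.4, 200.3 and 405.9 CPM in RFP KO-HFD, against 615.4, 276.3 and 641.8 CPM in WT-HFD. RFP KO-HFD 3 lay above WT-HFD 2, so the groups overlapped. Its log2 fold change was -1.22 (standard error 0.776, edgeR adjusted p = 0.852), and leaving out library RFP KO-HFD 1, as labelled, gave -0.77. Acss2 (gene ID 60525, chromosome 2 from 155359963 to 155404663, plus strand) was at 5.05, 22.5 and 35.1 CPM in RFP KO-HFD, against 95.5, 23.6 and 95.1 CPM in WT-HFD. RFP KO-HFD 3 again lay above WT-HFD 2, and the log2 fold change was -1.77 (standard error 0.838, edgeR adjusted p = 0.775). On the scale of library totals neither gene overlapped, with highest RFP KO-HFD values of 277 CPM for Slc25a1 and 24.0 CPM for Acss2, against lowest WT-HFD values of 319 and 27.3 CPM. The TMM factor of RFP KO-HFD 3 was 0.683, against 0.986 to 1.16 in the other libraries.

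Me1, the cytosolic malic enzyme (gene ID 17436, chromosome 9 from 86463416 to 86577967, minus strand), was at 389.6, 147.8 and 230.8 CPM in RFP KO-HFD, against 847.9, 242.0 and 802.4 CPM in WT-HFD. RFP KO-HFD 2 and 3 lay below every WT-HFD library, by a small margin from WT-HFD 2, while the library labelled RFP KO-HFD 1 did not. For Me1 the log2 fold change was -1.30 (standard error 0.634, edgeR adjusted p = 0.775) with all 6 libraries and -1.76 (standard error 0.601, edgeR adjusted p = 0.16) without that library.

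The 2 carboxylases did not follow. Acaca, the cytosolic form whose malonyl-CoA feeds Fasn (gene ID 107476, chromosome 11 from 84020461 to 84292477, plus strand), was at 82.9, 191.0 and 395.7 CPM in RFP KO-HFD, against 266.1, 116.9 and 293.3 CPM in WT-HFD. The highest and the lowest value of the 6 both belonged to RFP KO-HFD. Its log2 fold change was -0.014 (standard error 0.66, edgeR adjusted p = 0.998), with 0.027 under RLE factors and 0.049 under upper-quartile factors. Leaving out library RFP KO-HFD 1, as labelled, gave 0.36, and leaving out RFP KO-HFD 3 gave -0.74. Acacb, the form at the outer mitochondrial membrane whose malonyl-CoA restrains fatty acid oxidation (gene ID 100705, chromosome 5 from 114284748 to 114388822, plus strand), had 0 counts in the library labelled RFP KO-HFD 1, which allows up to 0.616 CPM of that library's total. It was at 264.0 and 507.8 CPM in RFP KO-HFD 2 and 3, against 153.9, 76.2 and 173.1 CPM in WT-HFD. Those 2 libraries lay above all of WT-HFD, and the third lay below. The log2 fold change was 0.94 with a standard error of 1.75 (edgeR adjusted p = 0.962). The fit on the 5 libraries other than the one with no count gave 1.5 (standard error 0.442, edgeR adjusted p = 0.134), and leaving out RFP KO-HFD 3 gave -0.048. Per count of Acaca there were 0, 1.38 and 1.28 counts of Acacb in RFP KO-HFD, against 0.578, 0.652 and 0.59 in WT-HFD.

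Fasn, the last enzyme of the series (gene ID 14104, chromosome 11 from 120696784 to 120715992, minus strand), showed the largest fitted difference of the 10 genes. It was at 453.9, 414.0 and 762.3 CPM in RFP KO-HFD 1, 2 and 3, against 2640, 1079 and 3265 CPM in WT-HFD 1, 2 and 3. Every RFP KO-HFD library lay below every WT-HFD library. Means were 543.4 ± 191 CPM in RFP KO-HFD and 2328 ± 1126 CPM in WT-HFD (SD, n = 3 each), so that the RFP KO-HFD mean was 0.233 of the WT-HFD mean. The log2 fold change was -2.10 (standard error 0.587, edgeR adjusted p = 0.599), with -2.46 when WT-HFD 2 was left out. Leaving out library RFP KO-HFD 1, as labelled, gave -2.0 (edgeR adjusted p = 0.131). DESeq2 gave an adjusted p = 0.0206, and limma-voom with quality weights an adjusted p = 0.0126.

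Fasn and Acly were the 2 of the 10 genes with no RFP KO-HFD library as high as any WT-HFD library, a pattern that 16% of all genes tested shared. On library totals they were joined by Slc25a1 and Acss2, with 27.8% of all genes tested. DESeq2 called the same pair lower, where 1.24% of the genes it adjusted were called lower, and limma-voom with quality weights called Fasn, Acly and Me1, where it called 2.97% of all genes lower. With RFP KO-HFD 1 left out, edgeR called 0 of the 10 and 2 of 15606 genes (0.0128%), and 3 of the 10 genes (Fasn, Acly and Me1) were lower at an unadjusted p under 0.05, beside 12.6% of all genes. Without that library and WT-HFD 2 together, Acly, Me1 and Acss2 were called lower in RFP KO-HFD, with adjusted p = 0.0402, 0.0446 and 0.0495 from edgeR, and Fasn had an adjusted p = 0.0515. That setting left 2 libraries a group, and 2.14% of all genes were called lower in it.

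**Figure D2:**
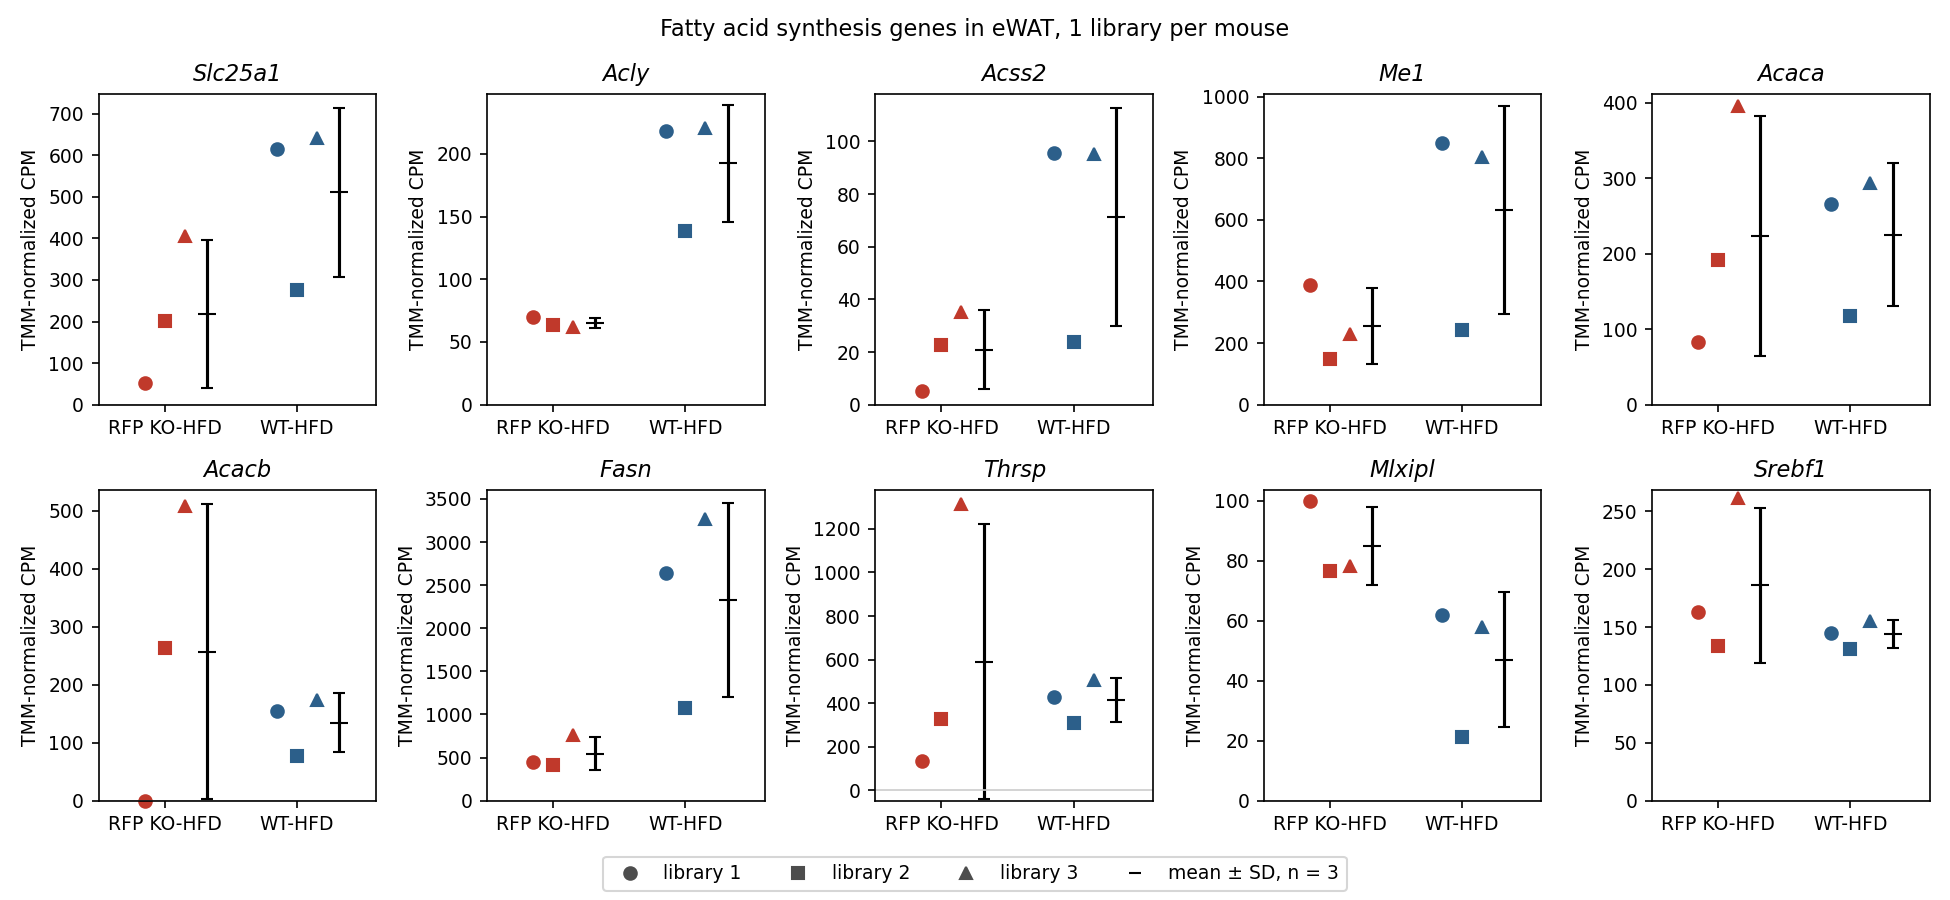
TMM-normalized CPM (vertical axes, linear, 1 panel per gene) in the 3 RFP KO-HFD libraries on the left of each panel and the 3 WT-HFD libraries on the right, with the marker shape giving the library's number and the bar the mean ± SD (n = 3 each). Fasn and Acly separate the groups downwards and Mlxipl upwards, Acacb is at 0 in the library labelled RFP KO-HFD 1, and WT-HFD 2 (square) is the lowest WT-HFD library in every panel.

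The regulators were not lower in step with Fasn and Acly. Srebf1 (gene ID 20787, chromosome 11 from 60089910 to 60113407, minus strand) was at 163.0, 133.3 and 261.8 CPM in RFP KO-HFD, against 145.1, 131.3 and 155.2 CPM in WT-HFD. Its WT-HFD values were the tightest of the 10 genes relative to their mean, at 143.9 ± 12.0 CPM, and 2 of the RFP KO-HFD values lay above all of them. The log2 fold change was 0.37 (standard error 0.38, edgeR adjusted p = 0.928), and -0.034 with library totals. The table gives 1 value for the gene, so the 1a and 1c forms of SREBP1, which start at different first exons, are not told apart.

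Mlxipl, the ChREBP gene (gene ID 58805, chromosome 5 from 135118744 to 135168622, plus strand), was at 99.9, 76.7 and 78.3 CPM in RFP KO-HFD, against 62.0, 21.3 and 58.0 CPM in WT-HFD. Each RFP KO-HFD library exceeded each WT-HFD library, as in 7.28% of all genes tested, and with library totals the groups overlapped, since RFP KO-HFD 3 was at 53.4 CPM and WT-HFD 1 at 69.3 CPM. The fitted log2 fold change was 0.85 (standard error 0.477, edgeR adjusted p = 0.815). The highest value was that of the library labelled RFP KO-HFD 1, which also held the highest sum of hepatocyte markers. The whole-gene count cannot separate the alpha and beta forms of ChREBP, which start at different promoters.

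Thrsp encodes Spot 14, a small nuclear and cytosolic protein induced with the lipogenic enzymes (gene ID 21835, chromosome 7 from 97062140 to 97066757, minus strand). It was at 135.1, 325.9 and 1313 CPM in RFP KO-HFD, against 430.9, 308.6 and 505.2 CPM in WT-HFD. The RFP KO-HFD values spanned more than the whole range of WT-HFD on either side. Its log2 fold change was 0.51 (standard error 0.83, edgeR adjusted p = 0.957), with -0.050 under library totals. Leaving out RFP KO-HFD 3 gave -0.87, and leaving out library RFP KO-HFD 1, as labelled, gave 0.97. Mid1ip1, the paralog of Thrsp whose protein promotes polymerization of the carboxylases, was at 64.7, 34.2 and 16.2 CPM in RFP KO-HFD, against 38.3, 90.6 and 32.4 CPM in WT-HFD. In RFP KO-HFD, Mid1ip1 was lowest in the library where Thrsp was highest.

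**Figure D3:**
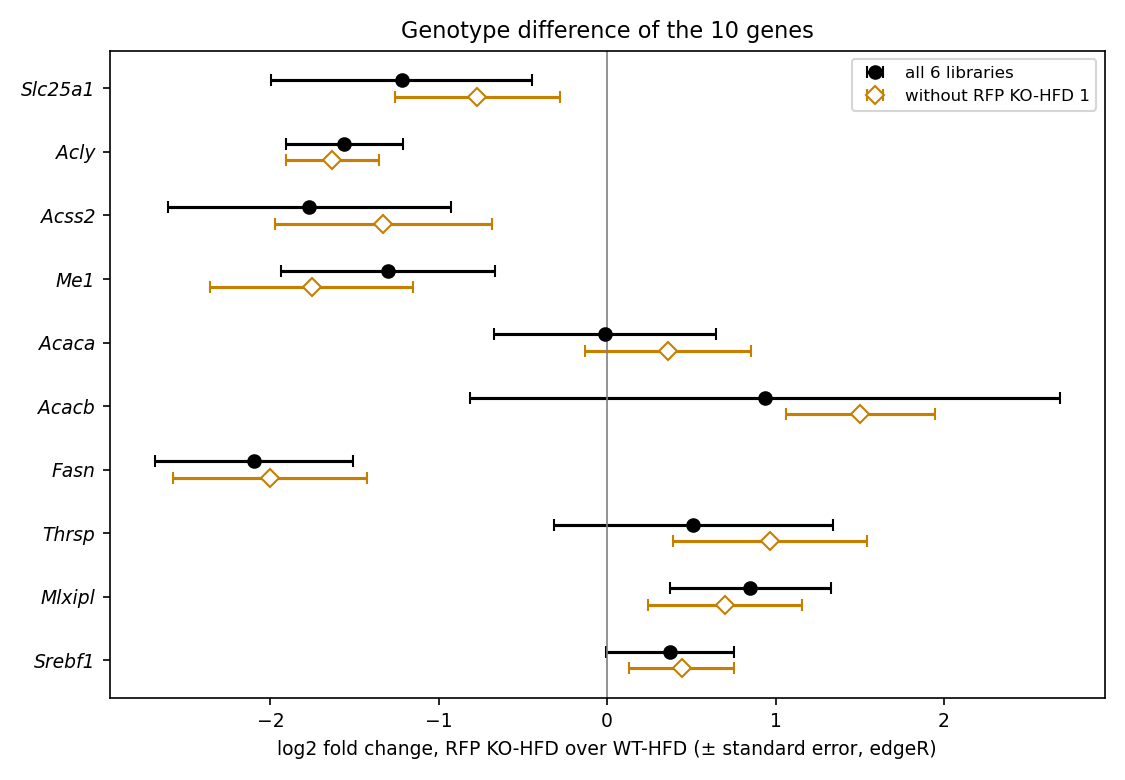
Log2 fold changes (horizontal axis, RFP KO-HFD over WT-HFD, ± standard error from edgeR) of the 10 genes in pathway order, with all 6 libraries (filled circles) and with RFP KO-HFD 1 left out (open diamonds). Slc25a1, Acly, Acss2, Me1 and Fasn lie left of 0 in both fits, at -2.10 to -1.22 with all libraries, and Acacb, Thrsp, Mlxipl and Srebf1 lie right of it.

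Ratios of 2 genes within a library do not depend on how libraries are scaled. For each count of Srebf1 there were 2.79, 3.11 and 2.91 counts of Fasn in RFP KO-HFD 1, 2 and 3, against 18.2, 8.22 and 21.0 in WT-HFD 1, 2 and 3. The RFP KO-HFD libraries were nearly equal in this ratio, at 2.93 ± 0.161 (SD, n = 3). For each count of Mlxipl there were 4.54, 5.40 and 9.74 counts of Fasn in RFP KO-HFD, against 42.6, 50.7 and 56.3 in WT-HFD, and here WT-HFD 2 lay between the other two. Acly over Srebf1 was 0.429, 0.478 and 0.237 in RFP KO-HFD, against 1.51, 1.06 and 1.42 in WT-HFD. Of all other genes tested, 18.7% lay lower in every RFP KO-HFD library per count of Srebf1, and 41.6% did so per count of Mlxipl. The groups were also apart for Acss2 and Slc25a1 over Srebf1 and for Fasn over Acaca and over Thrsp. For 2 of these the margin was small. Fasn over Thrsp was 3.36 in RFP KO-HFD 1 and 3.50 in WT-HFD 2, and Acss2 over Srebf1 was 0.169 in RFP KO-HFD 2 and 0.180 in WT-HFD 2. The share of all genes per count of Acaca or Thrsp was not taken. The groups overlapped for Me1 over Srebf1, Acaca over Srebf1 and Acacb over Acaca. These 10 ratios were chosen after the values had been seen. They are given as a description, with no test.

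**Figure D4:**
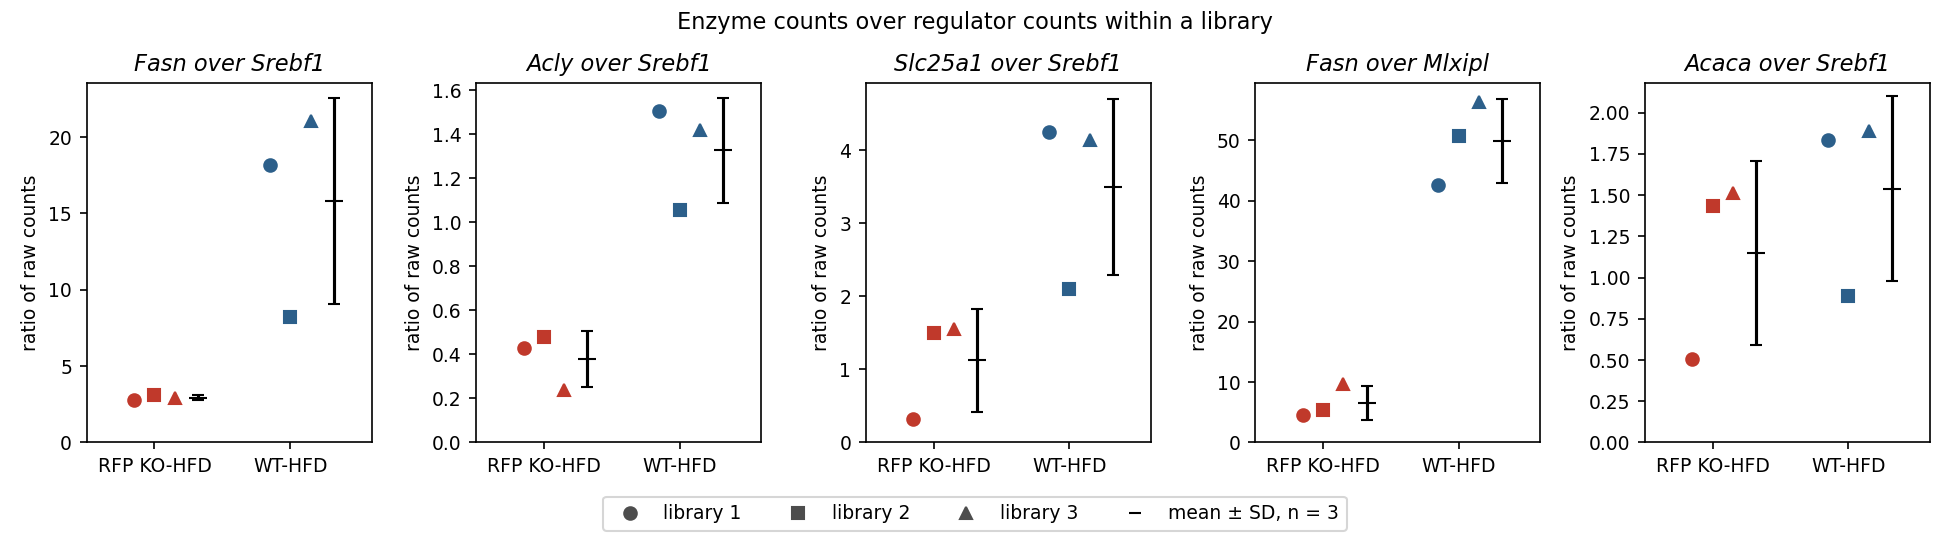
Ratios of raw counts within a library (vertical axes, linear, from 0) for 5 of the 10 gene pairs, with the 3 RFP KO-HFD libraries left and the 3 WT-HFD libraries right and the mean ± SD (n = 3 each) beside each group. Fasn over Srebf1 lies at 2.79 to 3.11 in RFP KO-HFD and at 8.22 to 21.0 in WT-HFD, and Acaca over Srebf1 overlaps.

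The adipocyte genes Adipoq and Plin1, which had counts in 5 of the libraries, give a second scale. Per count of the 2 together there were 0.158 and 0.225 counts of Fasn in RFP KO-HFD 2 and 3, against 1.27, 0.663 and 1.55 in WT-HFD 1, 2 and 3. On this scale Acly, Me1, Acss2 and Slc25a1 also lay below every WT-HFD library in both RFP KO-HFD libraries, with Acly at 0.0243 and 0.0184 in RFP KO-HFD, against 0.105, 0.0853 and 0.105 in WT-HFD. These were 5 of the 10 genes, and 53.3% of all genes tested lay lower in the same way, so the count for the 10 was no higher than the background. Acacb lay above them, at 0.101 and 0.15 in RFP KO-HFD, against 0.0741, 0.0468 and 0.082 in WT-HFD, as 5.96% of all genes tested did. Srebf1, Mlxipl, Acaca and Thrsp overlapped, Srebf1 being at 0.0509 and 0.0773 in RFP KO-HFD, against 0.0699, 0.0806 and 0.0735 in WT-HFD. The library labelled RFP KO-HFD 1 has no value here because it had no count of either marker.

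Levels were also compared between genes per length of exon. Mean levels in CPM per kb of exon (GENCODE M21, all basic transcripts merged) were 463 in RFP KO-HFD and 325 in WT-HFD for Thrsp, the highest of the 10 in both groups. Slc25a1 was second in both, at 132 in RFP KO-HFD and 307 in WT-HFD. Fasn stood at 54.1 in RFP KO-HFD and 232 in WT-HFD, and Me1 at 71.0 in RFP KO-HFD and 175 in WT-HFD. The mean of Me1 was above that of Fasn in RFP KO-HFD through RFP KO-HFD 1 (108 for Me1 and 45.2 for Fasn), while Fasn was the higher in RFP KO-HFD 3 and in all WT-HFD libraries and nearly level in RFP KO-HFD 2 (41.2 for Fasn and 41.0 for Me1). Acly was at 14.2 in RFP KO-HFD and 41.8 in WT-HFD, where it held the fifth place, and it held the ninth place in RFP KO-HFD. The other 5 genes spanned 5.48 (Acss2) to 43.3 (Srebf1) in RFP KO-HFD and 13 (Mlxipl) to 33.5 (Srebf1) in WT-HFD. In WT-HFD the ranges of Thrsp (242 to 396), Slc25a1 (166 to 385), Fasn (107 to 325) and Me1 (67.1 to 235) overlapped between neighbours. Within each WT-HFD library, Slc25a1 still stood above Fasn and Fasn above Me1. Only Thrsp and Slc25a1 changed places, at 337 and 369 in WT-HFD 1. In RFP KO-HFD 2 and 3 the order was Thrsp, Slc25a1, Fasn and Me1. In RFP KO-HFD 1 it differed, with Me1 (108) highest and Slc25a1 (30.8) below Fasn (45.2).

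Genes around the pathway were read from 7 lists, and edgeR called 0 of their members at an adjusted p under 0.05. Of 13 tested genes that bring carbon to citrate, 9 were lower by log2 fold change, with a median of -0.37. Pdha1, a subunit of pyruvate dehydrogenase, was at 79.9, 52.9 and 74.6 CPM in RFP KO-HFD, against 186.1, 112.8 and 168.7 CPM in WT-HFD, with no overlap (log2 fold change -1.17). Of the 13 genes, 2 lay lower without overlap, beside 16% of all genes tested. Dld, which is shared by several dehydrogenases, had a value of -1.27 and the cytosolic malate dehydrogenase Mdh1 of -0.86. Of 10 genes of NADPH supply, 7 had a value under 0 (median -0.086), and 5 did once RFP KO-HFD 1 was left out (median 0.023). The cytosolic isocitrate dehydrogenase Idh1 had a log2 fold change of -1.26 and Pgd of the pentose phosphate pathway of -0.88. Nadk2, the mitochondrial NAD kinase, had a value of 1.71 with all 6 libraries and of -0.088 when RFP KO-HFD 1 was left out, since it stood at 66.3 CPM in that library and at 6.73 to 9.16 CPM in the other 5. G6pdx encodes the first enzyme of the pentose phosphate pathway. It was at 4.04, 466 and 649 CPM in RFP KO-HFD, against 470, 244 and 450 CPM in WT-HFD, so that 1 library stood far under the other 5. Of 17 genes of glucose entry and glycolysis, 12 had a value under 0 (median -0.24), and leaving that library out made it 7 (median 0.071). The hexokinase Hk2 had a value of 0.80, and Pklr and Khk, the other 2 of smallest p, are given with the ChREBP targets.

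Of 15 genes that process or control SREBP1, 11 were higher by log2 fold change, with a median of 0.30. The list holds genes that promote SREBP1 and genes that restrain it, so the median gives no direction for SREBP1 activity. Of the 4 lower genes, the one with the smallest p was Insig1, which holds SREBPs in the endoplasmic reticulum and is itself induced by them. Insig1 was at 70.6, 44.6 and 24.6 CPM in RFP KO-HFD, against 242.2, 98.3 and 238.2 CPM in WT-HFD (log2 fold change -2.05). All its RFP KO-HFD values lay below all WT-HFD values, a pattern seen for 1 of the 15 genes and for 16% of all genes tested. Sik1, a kinase that restrains SREBP1, and Fbxw7, which targets nuclear SREBP for degradation, had values of 1.0 and 0.88. Both genes were higher in each RFP KO-HFD library than in any of WT-HFD, as were 7.28% of all genes tested. Fbxw7 was at 34.8, 18.4 and 13.7 CPM in RFP KO-HFD, against 12.7, 12.4 and 11.1 CPM in WT-HFD. Without RFP KO-HFD 1 the values were 0.923 for Sik1 and 0.395 for Fbxw7. Scap, the escort of SREBPs, was at 44.5, 47.5 and 49.9 CPM in RFP KO-HFD, against 39.3, 71.5 and 39.2 CPM in WT-HFD.

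Of 9 genes of the ChREBP partner Mlx, its paralog and its targets, 6 were higher, with a median of 0.32. Mlx itself was at 12.5, 14.4 and 14.9 CPM in RFP KO-HFD, against 16.4, 11.0 and 16.3 CPM in WT-HFD. Pklr, the liver pyruvate kinase, was at 152.8, 20.2 and 10.2 CPM in RFP KO-HFD, against 3.99, 0.968 and 3.13 CPM in WT-HFD. Ketohexokinase (Khk) was at 120.9, 55.3 and 38.7 CPM in RFP KO-HFD, against 16, 30.1 and 18.7 CPM in WT-HFD. G6pc, which releases free glucose in liver, was at 114.2, 1.24 and 3.96 CPM in RFP KO-HFD, against at most 0.547 CPM in WT-HFD. All 3 are genes of the liver, and each was highest in the library labelled RFP KO-HFD 1, as were the hepatocyte markers. Pklr and Khk were higher in RFP KO-HFD 2 than in RFP KO-HFD 3. The order was the other way for G6pc and for the sum of 12 hepatocyte markers (655 and 1214 CPM of the total). Without RFP KO-HFD 1 the log2 fold changes were 2.47 for Pklr, 1.11 for Khk and 3.27 for G6pc. The source of this RNA was not tested. Arrdc4 and Txnip, targets of ChREBP in many tissues, had log2 fold changes of -0.16 and -0.22. When RFP KO-HFD 1 was left out the value was -0.59 for Arrdc4 and turned to 0.27 for Txnip.

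Of 16 genes that act on the carboxylases or on malonyl-CoA, 11 were lower with a median of -0.27. Mlycd, which breaks down malonyl-CoA, was at 29.5, 42.9 and 71.3 CPM in RFP KO-HFD, against 20.9, 22.6 and 22.8 CPM in WT-HFD, with no overlap (log2 fold change 1.12). It was the 1 of the 16 genes that lay higher without overlap, beside 7.28% of all genes tested. Prkab1, a subunit of the kinase AMPK that inhibits the carboxylases, had a value of -0.75 and Oxsm of mitochondrial fatty acid synthesis of -1.03. Of 10 genes that elongate, desaturate or activate palmitate, 6 had a value under 0 (median -0.18), and 8 did when the library labelled RFP KO-HFD 1 was left out (median -0.55). The desaturase Scd2 had a log2 fold change of -2.77, and all its RFP KO-HFD values lay below WT-HFD, as for 16% of all genes tested. The elongases Elovl5 and Elovl6 had values of 1.96 and 2.41, and without that library, where they stood at 587 and 220 CPM, 0.29 and -0.04.

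**Figure D5:**
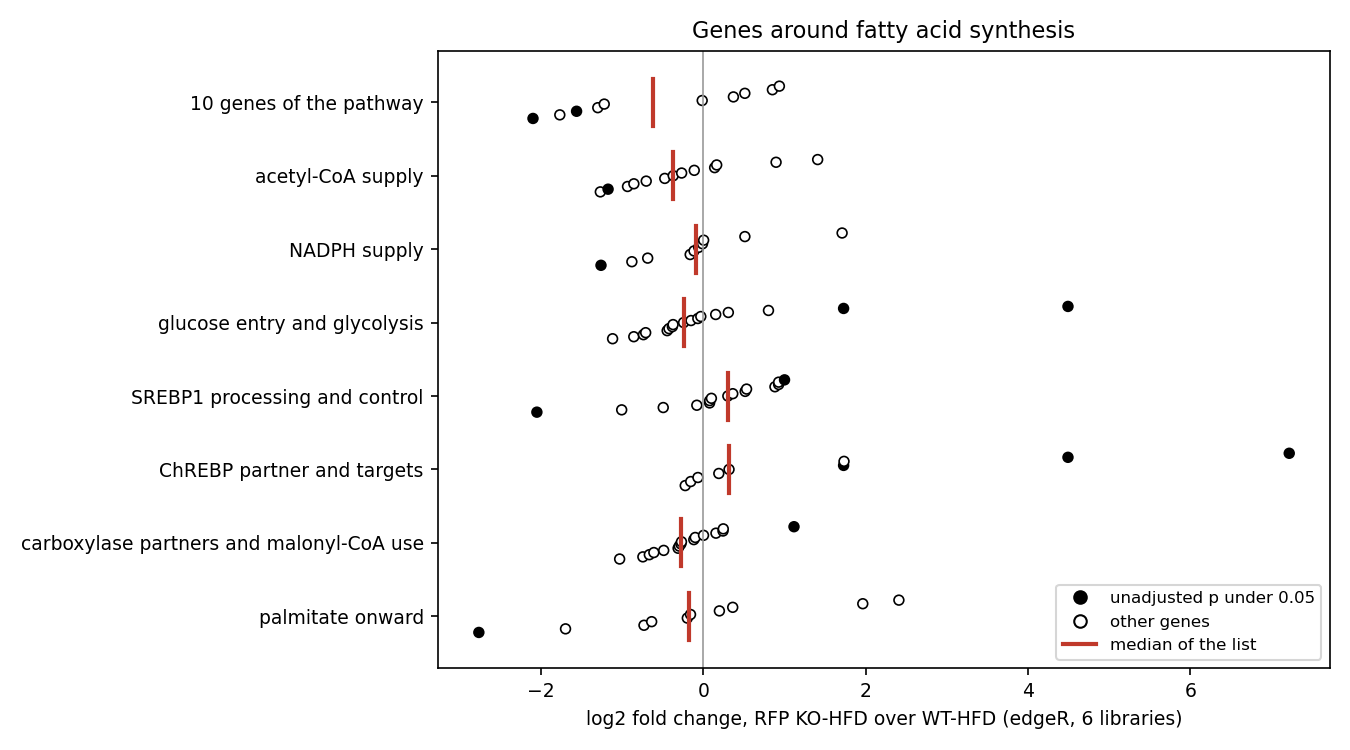
Log2 fold changes (horizontal axis, RFP KO-HFD over WT-HFD, edgeR with 6 libraries) of the tested genes in the 10 genes of the pathway and in 7 lists around it, 1 point per gene, filled where the unadjusted p was under 0.05, with the median as a red line. The medians lie between -0.62 for the 10 genes and 0.32 for the ChREBP list, and the points farthest right are G6pc and Pklr.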

How the data were processed

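Total RNA of eWAT from 3 RFP KO-HFD and 3 WT-HFD mice was made into poly(A)-selected CORALL libraries and read as paired ends of 100 bases. The paper's methods name Fastp for trimming, STAR for alignment and Salmon for quantification. Trimmomatic and mm10 stand in the submitters' processing notes, whereas the workbook names GRCm39, which its RefSeq chromosome accessions match, so gene coordinates are GRCm39. No tool version is given in the sources used here. Whole-number counts per gene and library were deposited by the authors, beside log2 normalized values and their own fold changes and p-values, none of which were used.

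Counts were filtered with filterByExpr (min.count 10, min.total.count 15), scaled by TMM and fitted with edgeR 4.0.16 (glmQLFit and glmQLFTest, robust, genotype as the only term) in R 4.3.3, with Benjamini-Hochberg adjustment over all genes. The fit was repeated in DESeq2 1.42.0 and in limma 3.58.1 (voom, plain or with quality weights), under other scalings and filters, on protein-coding nuclear genes, with a replicate block and with libraries left out. TMM equalizes most genes and does not measure RNA per cell. The strand setting of the counting is not given: Tada2a (at most 8.81 CPM of the library total) overlaps Acaca, and Rai1 (at most 24.3 CPM) overlaps Srebf1, both on the opposite strand. Named genes were the 10 members, the 3 of smallest p in each list, Mid1ip1, Mlx, Insig1, Scap, markers and Trim27, and G6pdx, Arrdc4, Txnip, Adipoq and Plin1 were added after their values were seen. Members and lists were chosen with earlier results of these data known. Of the listed genes, Pc was not analysed here. The p-values weigh the group difference against the spread between libraries, 3 a group from 1 mouse each. In edgeR the estimate of that spread also draws on the other genes.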

Additional observations from a re-analysis of the deposited data

How the results depend on the processing

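Fasn, Acly, Me1, Acss2 and Slc25a1 kept negative log2 fold changes and Mlxipl kept a positive one under all alternatives run, Fasn from -2.49 to -1.80 and Acly from -1.88 to -1.47. The number of the 10 genes at an adjusted p under 0.05, which was 0 with edgeR, was 2 with DESeq2 (488 genes in all), 3 with limma-voom with quality weights (1039 genes) and 3 without RFP KO-HFD 1 and WT-HFD 2 (507 genes). It was 0 with each library left out in turn, when 0 to 2 genes of the table passed. Acaca turned positive with RLE (0.027) and upper-quartile factors (0.049), DESeq2 (0.027), quality weights (0.0057), protein-coding nuclear genes (0.0086) and without RFP KO-HFD 1 and WT-HFD 2 (0.058), with -0.74 to 0.36 over left-out libraries. Thrsp turned negative with library totals (-0.050), limma-voom (-0.099) and the replicate block (-0.057), with -0.87 to 0.97 over left-out libraries, Srebf1 with library totals (-0.034), and Acacb with limma-voom (-0.26), with -0.048 to 1.5 over left-out libraries. The causes were not tested. Acacb could not be fitted under the filter of 10 counts in every library. Same-numbered libraries deviated together only weakly (r = 0.0428, 0.0473 and 0.0893 across genes), each with its own number best. The replicate block gave 393 genes at an unadjusted p under 0.05 in place of 992 and called none of the 10.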
